A study of Zygosaccharomyces bailii with 18 samples.

Results

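The parental strain IST302 of the spoilage yeast Zygosaccharomyces bailii was compared after 1 h with 0.08 mM copper, added as CuSO4, and without stress. The genes described are all 190 rows of the authors' deposited comparison of these groups, out of 1701 genes listed in any of the 6 comparisons of the series. It rests on 6 of the 18 libraries, 3 of copper-treated and 3 of unstressed wild-type cells. Both groups grew at 30 °C in liquid mineral medium with glucose at pH 4.0, and the strain is haploid. Unstressed cells were collected at the moment the copper was added, so the comparison also holds 1 h of growth, which cannot be told apart from copper. The study also observed that cells clump in copper. The other groups were parental cells in acetic acid and a Zbhaa1 deletion mutant in the same conditions, and they appear only where their values stand beside those of a copper-responsive gene. Zbhaa1 is the mutant of ZbHAA1, the single Z. bailii gene that corresponds to the paralogous Haa1 and Cup2 transcription factors of Saccharomyces cerevisiae.

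Copper is a cofactor of enzymes such as the copper-zinc superoxide dismutase and the multicopper ferroxidases, but free copper ions drive the formation of reactive oxygen species, displace iron from iron-sulfur clusters and damage proteins. S. cerevisiae answers an excess mainly with metallothioneins, small cysteine-rich proteins that bind the metal, whose genes are activated by Cup2. Damaged proteins are refolded by chaperones or degraded by the proteasome, in which a barrel of proteolytic subunits, the core particle, is capped by a regulatory particle that recognises ubiquitin-tagged substrates.

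Each value is a log2 fold change of copper-treated over unstressed cells that the authors obtained with edgeR from 3 libraries a group and deposited with the average level, in log2 CPM (reads of a gene scaled to the total of its library), and a false discovery rate (FDR). Each row passed the authors' limits of 0.05 on the FDR and 1.5 on the fold change. A gene that is missing from it missed a threshold or the authors' filter on low counts, and its change is unknown. Values of single libraries were not used here, so the overlap of the groups cannot be shown and the depth of each library stays unstated. In their place stand 2 quantities computed for each gene. The implied level of each group is the CPM that the fold change and the average level require. The largest standard error that the FDR allows is written "SE at most", and it is an approximate limit. Names are those of S. cerevisiae homologues, and the function given with a name is that of the S. cerevisiae gene.

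After copper 121 genes were raised and 69 were lowered, with all 190 being 3.85% of the 4930 genes tested. The raised genes were 2.45% and the lowered genes 1.4% of those tested. The median log2 fold change of the raised genes was 0.80, with quartiles of 0.69 and 0.94, and that of the lowered genes was -0.73, with quartiles of -0.91 and -0.65. A change of over 2-fold was reached by 26 raised and 12 lowered genes, so that 95 and 57 changed by less. The SE was at most 0.30 for the median gene. Raised genes as a group went from 33937 to 80562 implied CPM, or from 3.39% to 8.06% of all reads counted in genes, and lowered genes went from 18026 to 10858 CPM. A single gene, the metallothionein homologue CRS5, made up 49.1% of the summed increase. It was followed by the cyclophilin gene CPR1 with an increase of 4158 CPM, the transaldolase gene TAL1 with 1836 CPM, SOD1 with 1809 CPM and ZRT1 with 1481 CPM.

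**Figure D1:**
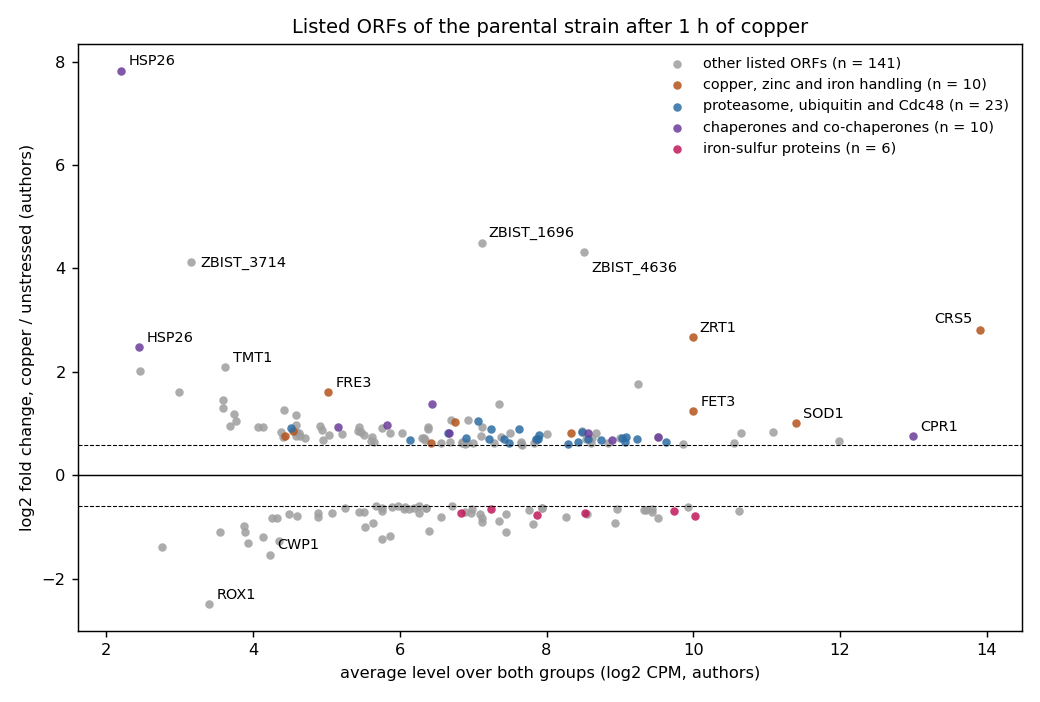
Log2 fold change of copper-treated over unstressed parental cells (vertical axis) against the average level in log2 CPM (horizontal axis) for the 190 listed genes, coloured by gene list, with dashed lines at a fold change of 1.5. CRS5 lies farthest to the right at 13.9 log2 CPM, the HSP26 homologue ZBIST_3442 highest at 7.82, and ROX1 lowest at -2.49.

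The genes that changed most were a mixture of metal handling genes, small heat shock protein genes and genes without a named homologue. CRS5 (ZBIST_3713) went from an implied 3839 CPM in unstressed cells to 26734 CPM in copper, a log2 fold change of 2.80 (SE at most 0.49, FDR 1.33e-08 by edgeR). In copper it thus took an implied 2.67% of all reads counted in genes, against an implied 0.384% without stress. It had the highest average level of the 190 genes. ZRT1 (ZBIST_4639), which takes up zinc with high affinity, went from 276 to 1758 CPM, a log2 fold change of 2.67 (SE at most 0.41, FDR 8.11e-11 by edgeR). SOD1 (ZBIST_1797), the copper-zinc superoxide dismutase, went from 1785 to 3595 CPM, a log2 fold change of 1.01 (SE at most 0.33, FDR 0.00204 by edgeR). These 3 were all the raised genes among 7 ORFs named in the copper and zinc list. None of the 7 was lowered. The other 4, named CCC2 (a copper-transporting ATPase of the secretory pathway), ZAP1 (the zinc-responsive transcription factor), IZH1 and a further ZRT1, were not listed. For comparison, of the 1297 ORFs that have a named homologue and were listed in at least 1 comparison of the study, 7.25% were raised after copper and 4.55% were lowered.

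There were 4 genes that exceeded CRS5 in fold change, at much lower levels. ZBIST_1696 has no named homologue, but the paper describes it as related to a cation transport ATPase. It went from 11.8 to 266 CPM, a log2 fold change of 4.50 (SE at most 0.58). Its FDR, 1.23e-14 by edgeR, was the lowest of the comparison. ZBIST_4636 went from 35.0 to 694 CPM (log2 fold change 4.31, SE at most 0.63) and ZBIST_3714 from 0.965 to 16.9 CPM (4.13, SE at most 0.76). The HSP26 homologue ZBIST_3442 had the largest fold change, 7.82, but also the largest uncertainty (SE at most 1.72). Its implied level rose from 0.0406 CPM, which is practically no reads, to 9.19 CPM, so the size of this change is very uncertain. ZBIST_3442 and ZBIST_3714 were the only 2 raised genes with an implied unstressed level below 1 CPM.

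Of 15 ORFs named in the iron reduction and uptake list, 7 were raised, 0 were lowered and 8 were not listed. The median of the raised members was 0.85, against 0.80 for all raised genes, and their summed level went from 1033 to 2207 CPM. FET3 (ZBIST_1314), the multicopper ferroxidase that requires copper to oxidise iron for uptake, went from 612 to 1438 CPM (log2 fold change 1.23, SE at most 0.30, FDR 2.92e-05 by edgeR). The ferric reductase homologue FRE3 was raised in 2 ORFs, from 16.1 to 49.0 CPM in ZBIST_2107 (1.61) and from 16.2 to 27.3 CPM in ZBIST_4165 (0.75). Transporters of iron bound to siderophores followed, with ARN2 raised in ZBIST_2552 from 70.9 to 144 CPM (1.02) and in ZBIST_4135 from 234 to 415 CPM (0.83), and SIT1 from 16.6 to 29.9 CPM (0.85). HMX1, the haem oxygenase that releases iron from haem, was raised least, from 67.6 to 104 CPM (0.62). The members not listed were FRE8, CTH1, FRE2, a further SIT1, a further FRE3, FET5, FIT2 and FET4, so the reductive and the siderophore routes each had raised and unlisted members.

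Of 15 ORFs named in the list of proteins that carry an iron-sulfur cluster, 6 were lowered, 0 were raised and 9 were not listed. Their median was -0.72 and their summed level went from 3452 to 2068 CPM. The 6 changes lay close together, between -0.79 and -0.65. Both ORFs of aconitase, the tricarboxylic acid (TCA) cycle enzyme ACO1, were lowered, ZBIST_1711 from 295 to 173 CPM (-0.77, SE at most 0.27) and ZBIST_3766 from 142 to 85.8 CPM (-0.72, SE at most 0.26). The next 3 were biosynthetic enzymes. The sulfite reductase subunit MET5 went from 1314 to 760 CPM (-0.79), the branched-chain amino acid enzyme ILV3, a dihydroxyacid dehydratase, from 458 to 277 CPM (-0.72), and the lysine pathway enzyme LYS4, homoaconitase, from 1059 to 655 CPM (-0.69). CIR2, related to the electron transfer flavoprotein dehydrogenases, was lowered from 184 to 117 CPM (-0.65). The unlisted members included LEU1 and SDH2, both iron-sulfur enzymes of the mitochondria or cytosol, and RLI1, DPH1, DPH2, POL3, PRI2, DNA2 and CHL1, which act in translation or on DNA. The largest decrease of the whole comparison was that of ROX1 (ZBIST_3690), in S. cerevisiae a haem-dependent repressor of hypoxic genes, which went from 18.0 to 3.20 CPM (-2.49, SE at most 0.72, FDR 0.000590 by edgeR).

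**Figure D2:**
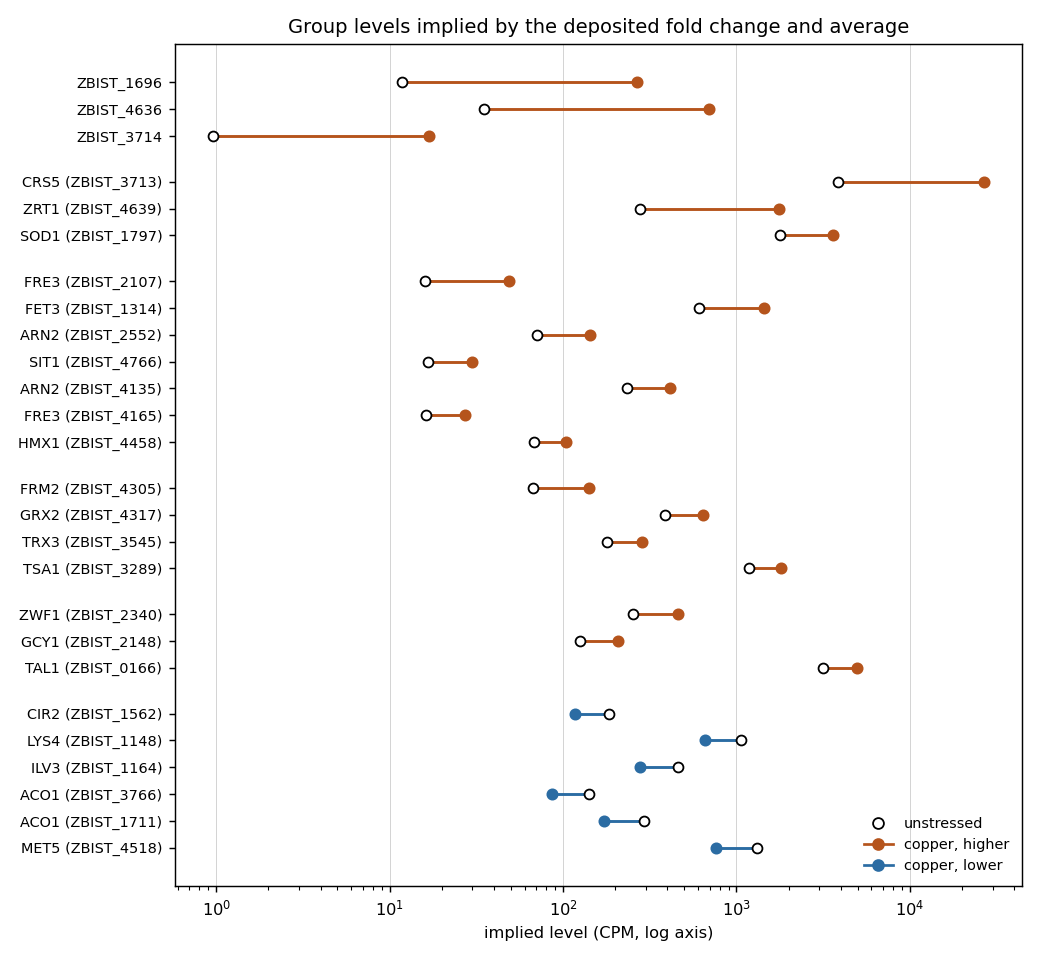
Implied level of unstressed (open circles) and copper-treated (filled circles) parental cells, in CPM on a logarithmic axis, for 26 genes. From top to bottom, 3 have no named homologue. Listed members follow of the copper and zinc, iron uptake, oxidative stress, pentose phosphate and NADPH supply, and iron-sulfur lists. The 6 iron-sulfur genes at the bottom are the only ones to shift to the left, and CRS5 ends at 26734 CPM.

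Antioxidant genes were raised in part. Of 23 ORFs named in the oxidative stress list, 5 were raised, 0 were lowered and 18 were not listed. Beside SOD1 they were FRM2, a nitroreductase-like protein, from 66.8 to 140 CPM (1.07), the glutaredoxin GRX2 from 388 to 638 CPM (0.72), the mitochondrial thioredoxin TRX3 from 178 to 286 CPM (0.68) and the peroxiredoxin TSA1 from 1183 to 1818 CPM (0.62). The catalase CTT1, the glutathione synthesis enzyme GSH1, the peroxidases AHP1 and CCP1, the sulfiredoxin SRX1 and the regulator YAP1 were among those not listed. NADPH is the reductant of the glutaredoxin and thioredoxin systems. In the list of the pentose phosphate pathway and NADPH supply, 3 of 5 named ORFs were raised. They were ZWF1, the glucose-6-phosphate dehydrogenase, from 253 to 460 CPM (0.86), GCY1, an NADP-dependent glycerol dehydrogenase, from 125 to 208 CPM (0.74), and TAL1 of the pentose phosphate pathway from 3152 to 4989 CPM (0.66).

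Nearly every subunit of the proteasome core was raised. Of its 14 subunits, 13 were raised, 0 were lowered and only PRE1 was not listed. The changes were small and alike, with folds from 1.53 to 1.86 and FDR values from 0.00476 to 0.0204 by edgeR, and the subunits together went from 3296 to 5342 CPM. Unstressed levels lay between 90.9 CPM, for PRE6, and 616 CPM, for PRE3. PUP1, which carries a proteolytic active site, rose most, from 138 to 257 CPM (0.90, SE at most 0.32). PRE7 (0.83), PRE10 (0.75), PRE6 (0.72), SCL1 (0.71), PUP3 (0.71), PUP2 (0.70) and PRE9 (0.70) followed. The smallest increases were those of PRE3 (0.65), PRE4 (0.65), PRE8 (0.64), PRE5 (0.63) and PRE2 (0.61). PRE3 and PRE2 encode the other 2 subunits with an active site, so catalytic and structural subunits were spread over the whole range. All 13 lay under 2-fold, and 4 had an FDR below 0.01.

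The regulatory particle was represented less. Of 19 ORFs, 4 were raised, 0 were lowered and 15 were not listed. The raised subunits were the ubiquitin receptor RPN13 from 106 to 197 CPM (0.90), SEM1 from 73.3 to 128 CPM (0.81), the ATPase RPT5 from 394 to 650 CPM (0.72) and RPN7 from 176 to 286 CPM (0.70). Among 13 ORFs for proteasome assembly, regulation and substrate delivery, 3 were raised, namely the shuttle factor DSK2 (0.71), the assembly chaperone UMP1 (0.68) and the ubiquitin protease UBP6 (0.68). In the ubiquitin and Cdc48 list 3 of 32 ORFs were raised and 0 lowered, a raised share of 9.38%, near the 7.25% of all named ORFs. These were SHP1, a cofactor of Cdc48, from 86.6 to 180 CPM (1.06), BUL1, an adaptor of the ubiquitin ligase Rsp5, from 15.8 to 29.8 CPM (0.91), and the polyubiquitin gene UBI4 from 177 to 302 CPM (0.78). The vacuole, which also degrades proteins, had 6 of 19 ORFs raised and 0 lowered. They were the autophagy protein ATG8 (0.88), the ribonuclease RNY1 (0.84), carboxypeptidase Y (PRC1, 0.73), its inhibitor TFS1 (0.72), the proteinase B inhibitor PBI2 (0.64) and proteinase A (PEP4, 0.62).

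Among 40 chaperone and co-chaperone ORFs, 10 were raised, 0 were lowered and 30 were not listed. The median of the raised ones was 0.88. HSP26, a small heat shock protein that holds unfolded proteins, was raised in a second ORF, ZBIST_0079, from 1.67 to 9.28 CPM (2.48, SE at most 0.83). Another HSP26 ORF, ZBIST_3334, was not listed. The paper also counts ZBIST_4487 as an HSP26 homologue, and it was not listed either. SSA3, a stress-induced Hsp70, went from 48.4 to 125 CPM (1.37, SE at most 0.31, FDR 8.31e-06 by edgeR). Factors that sort or dissolve aggregates were each raised by about the median, with BTN2 from 38.4 to 75.6 CPM (0.98), the small heat shock protein HSP42 from 24.4 to 46.8 CPM (0.94) and the disaggregase HSP104 from 73.6 to 130 CPM (0.82). Of the Hsp90 co-chaperones 3 ORFs were raised, HCH1 from 274 to 485 CPM (0.82), SBA1 from 551 to 919 CPM (0.74) and AHA1 from 367 to 586 CPM (0.68). The Hsp90 co-chaperones STI1, CDC37, CPR6 and SGT1 were not listed. The Hsp90 gene HSP82, and other general chaperones such as SSA1, SSE1, YDJ1, SIS1, HSP60 and KAR2, were not listed either. CPR1, a peptidyl-prolyl isomerase, rose by only 0.75 but from 6098 to 10256 CPM.

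**Figure D3:**
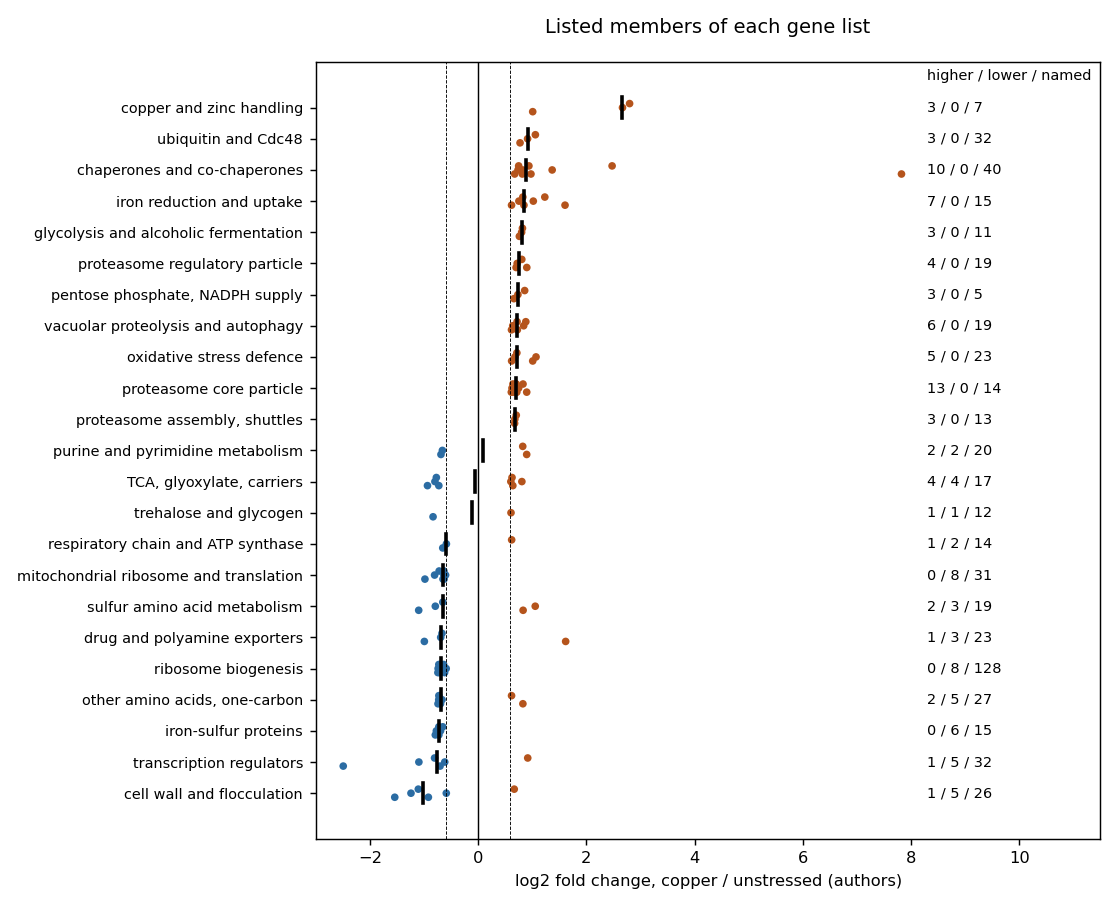
Log2 fold change (horizontal axis) of every copper-listed member of the 23 gene lists that hold any, with raised genes in brown, lowered genes in blue, the median as a black bar and a fold change of 1.5 as dashed lines. The figures at the right give the raised, the lowered and all named ORFs of a list, and 11 lists at the top hold raised genes alone.

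Carbon metabolism was raised at some steps and lowered at others. The list of TCA and glyoxylate cycle genes and their carriers held 4 raised, 4 lowered and 9 unlisted ORFs of 17. Citrate synthase CIT1, from 740 to 1126 CPM (0.61), malate dehydrogenase MDH2, from 157 to 245 CPM (0.64), the succinate-fumarate carrier SFC1 (0.63) and the glyoxylate reductase GOR1, from 1173 to 2055 CPM (0.81), were raised. Both aconitases were lowered, as were 2 genes related to succinate dehydrogenase subunits, YJL045W from 296 to 155 CPM (-0.93) and SHH4 from 389 to 224 CPM (-0.80). CIT1 and ACO1, which catalyse successive steps of the cycle, thus moved in opposite directions. TMT1, a methyltransferase that acts on trans-aconitate, was among the largest increases, from 4.69 to 19.96 CPM (2.09, SE at most 0.50). Of 11 glycolysis and fermentation ORFs, 3 were raised, namely the alcohol dehydrogenases ADH3 (0.82) and ADH1 (0.80) and the hexokinase HXK1 (0.76), and 0 were lowered. TYE7, an activator of glycolytic genes, was lowered from 238 to 111 CPM (-1.09, SE at most 0.30, FDR 0.000251 by edgeR). In the trehalose and glycogen list, the debranching enzyme GDB1 was raised (0.61) and the glucoamylase SGA1 lowered (-0.83), with 10 of 12 not listed. Each was 8.33% of the list, beside 7.25% raised and 4.55% lowered among all named ORFs.

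In sulfur amino acid metabolism 2 ORFs were raised, 3 were lowered and 14 of 19 were not listed. The shares were 10.5% raised and 15.8% lowered, beside 7.25% and 4.55% of all named ORFs. The raised ones were the methionine permease MUP1 from 8.84 to 18.4 CPM (1.06) and the cystathionine beta-lyase STR3 from 31.9 to 56.7 CPM (0.83). The lowered ones were MET5, the methylenetetrahydrofolate reductase MET13 from 85.1 to 54.2 CPM (-0.65) and YLL058W, similar to cystathionine gamma-synthase, from 15.9 to 7.45 CPM (-1.10). The glutathione enzyme GSH1 was not listed. Among 27 ORFs for other amino acids and one-carbon units, 5 were lowered. They included ILV3, LYS4 and the glycine decarboxylase subunits GCV1 (-0.73) and GCV2 (-0.74). The 2 raised ones, 7.41% of the list, were the glutamate dehydrogenase GDH3 from 1568 to 2784 CPM (0.83) and the leucine pathway enzyme LEU2 (0.62). Nucleotide metabolism was split, with URA2 (-0.66) and GUA1 (-0.69), which act in pyrimidine and guanine nucleotide synthesis, lowered and the purine-cytosine permease FCY2 (0.90) and the cytidine deaminase CDD1 (0.83) raised. Each direction held 10% of the 20 ORFs of that list. GUA1 had the largest decrease in CPM of all 190 genes, from 1950.0 to 1212.

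Of 31 ORFs for mitochondrial ribosomes and translation, 8 (25.8%) were lowered and 0 raised, with a median of -0.64. The strongest was the ribosomal protein MRPL23 from 19.6 to 9.92 CPM (-0.98), followed by RPM2 (-0.80), SWS2 (-0.72), MRP13 (-0.65), MDM38 (-0.63), RSM26 (-0.63), MEF1 (-0.63) and YML6 (-0.60). Of 128 ribosome biogenesis ORFs, 8 were lowered and 0 raised, with a median of -0.68, a share of 6.25% beside the 4.55% of all named ORFs. They were MDN1 (-0.74), DBP7 (-0.74), UTP20 (-0.73), FPR3 (-0.71), ARX1 (-0.66), DHR2 (-0.64), DBP2 (-0.62) and MAK5 (-0.59). DBP2, DBP7, DHR2 and MAK5 are helicases of the DEAD or DEAH type. Of 75 cytosolic ribosomal protein ORFs none was listed in either direction. KAP123, a nuclear import receptor that carries ribosomal proteins, was lowered from 936 to 531 CPM (-0.82). Of 14 ORFs in the respiratory chain list, 2 were lowered, 1 was raised and 11 were not listed. The shares were 14.3% lowered and 7.14% raised, beside 4.55% and 7.25% of all named ORFs. The lowered ones were CIR2 and OXA1 (-0.59), which inserts proteins into the inner mitochondrial membrane. The raised one was the ATP synthase inhibitor INH1 (0.62).

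At the cell surface, 5 of 26 cell wall ORFs were lowered and 1 was raised. These are shares of 19.2% and 3.85%, beside 4.55% lowered and 7.25% raised among all named ORFs. Both ORFs of the mannoprotein CWP1 were lowered, ZBIST_0760 from 28.0 to 9.64 CPM (-1.54, SE at most 0.59) and its neighbour ZBIST_0761 from 641 to 339 CPM (-0.92, SE at most 0.38). FLO9, a flocculin of S. cerevisiae, was lowered from 75.8 to 32.1 CPM (-1.24, SE at most 0.62, FDR 0.0456 by edgeR). ECM13 (-1.10) and the stress sensor WSC4 (-0.59) were lowered and the glucanosyltransferase GAS4 was raised (0.67). Of 23 drug and polyamine exporter ORFs, 3 were lowered, 1 was raised and 19 were not listed. These are shares of 13% lowered and 4.35% raised, beside 4.55% and 7.25% of all named ORFs. The lowered ones were all 3 ORFs of the polyamine transporter TPO1, at -0.99, -0.69 and -0.67. FLR1 (ZBIST_0576), a multidrug transporter, was raised from 3.90 to 11.98 CPM (1.62, SE at most 0.72). The unlisted members included 4 other FLR1 ORFs, QDR2, SGE1 and TPO3. The high-affinity phosphate transporter PHO84 was lowered from 24.6 to 10.8 CPM (-1.19). How reads that fit several copies of a gene were assigned is not given in the sources used here, so the split between ORFs of 1 homologue is uncertain. In each of the 6 homologues with several listed ORFs, namely ACO1, ARN2, CWP1, FRE3, HSP26 and TPO1, the listed ORFs moved in 1 direction.

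Of 32 transcription regulator ORFs, 5 (15.6%) were lowered, 1 (3.13%) was raised and 26 were not listed. Among all named ORFs 4.55% were lowered and 7.25% raised. Beside ROX1 and TYE7 the lowered regulators were STP3 (-0.80), the ORF named XPB1 (-0.70) and MOT1 (-0.62), which removes the TATA-binding protein from DNA. The raised one was SPT10, from 37.3 to 70.5 CPM (0.92). Other named genes that belong to no list included the cyclins CLB5, from 30.0 to 56.9 CPM (0.92), and PCL5 (0.96), the tRNA synthetase cofactor ARC1 (1.30), the DNA repair methyltransferase MGT1 (0.96) and the phosphatase regulator SDS22 (0.94). The actin-binding proteins profilin (PFY1, 0.73) and tropomyosin (TPM1, 0.70) were raised from 552 to 917 CPM and from 283 to 461 CPM. Among the lowered ones were YMR244W, from 28.8 to 11.9 CPM (-1.27), the kinases TDA1, from 115 to 54.2 CPM (-1.08), and SKS1 (-0.91), the peroxisomal import factor PEX21 (-0.92) and the carbonic anhydrase NCE103, from 211 to 114 CPM (-0.89).

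No homologue was named for 27 of the 121 raised and 10 of the 69 lowered genes, and 11 and 3 of these changed by over 2-fold. After ZBIST_1696, ZBIST_4636 and ZBIST_3714 the largest increases among them were ZBIST_1233 from 2.19 to 8.85 CPM (2.01), ZBIST_2634 from 276 to 936 CPM (1.76), ZBIST_4635 from 6.43 to 17.6 CPM (1.45) and ZBIST_4946 from 90.7 to 236 CPM (1.38). ZBIST_1600 (1.26), ZBIST_4824 (1.19), ZBIST_1232 (1.16) and ZBIST_3873 (1.07) completed the 11. The largest decreases were those of ZBIST_1699 from 9.75 to 3.75 CPM (-1.38), ZBIST_5023 from 21.8 to 8.79 CPM (-1.31) and ZBIST_2058 from 81.0 to 36.0 CPM (-1.17). Several of these genes lie side by side. In the annotation of the strain, 189 of the 190 genes were found, among 5141 protein-coding genes. There, 12 pairs of listed genes were direct neighbours, 11 of them with both genes changed in 1 direction, and no pair overlapped. The number of such pairs for genes placed at random was not computed, so no clustering is read from these counts. A shared direction is also common by itself, as 121 of the 190 genes were raised. ZBIST_3714 lies next to CRS5, ZBIST_4635 next to ZBIST_4636, and ZBIST_1232 next to ZBIST_1233. Further raised pairs were SEM1 with RPT5, ARN2 with ZBIST_4136 (0.63), PCL5 with ZBIST_1306 (0.61), CLB5 with ZBIST_2267 (0.83) and SPT10 with ZBIST_2714 (0.94). The lowered pairs were CWP1 with CWP1, TPO1 with TPO1 and XPB1 with NCE103. The butanediol dehydrogenase gene BDH1 (-0.62) and GDH3 (0.83) were the pair that moved in opposite directions.

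Other comparisons of the series give further values for these genes. They share libraries with the copper comparison, the unstressed ones with that of acetic acid and the copper-treated parental ones with that of the Zbhaa1 mutant against the parental strain in copper, so the values are set side by side and no agreement is read from them. In acetic acid against unstressed cells the HSP26 ORFs had log2 fold changes of 8.73 (ZBIST_3442) and 3.31 (ZBIST_0079), beside 7.82 and 2.48 in copper. SSA3 had 1.20 beside 1.37 in copper, HSP42 had 1.18 beside 0.94, and HSP104 had 1.16 beside 0.82. CRS5, FET3, SOD1, ZBIST_1696, ZBIST_4636 and ZBIST_3714 were not listed in acetic acid. In 5 genes the listed signs were opposite, and the differences were not tested. ZRT1 had -1.04 in acid and 2.67 in copper, BUL1 -0.94 and 0.91, HMX1 -0.65 and 0.62, the aconitase ZBIST_1711 0.74 and -0.77, and ZBIST_0039 0.82 and -0.79. ROX1 was lowered in both, with -1.01 in acid and -2.49 in copper.

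The 10 genes raised most after copper went both ways in the mutant against the parental strain in copper, with 5 lower and 5 higher in the mutant. This label is that of the deposited comparison. The paper's supplement heads the same values as mutant cells in copper against unstressed cells. The log2 fold change of mutant over parental cells was -5.16 for ZRT1, -3.09 for ZBIST_1696, -2.36 for ZBIST_3714, -1.22 for CRS5 and -1.11 for TMT1. It was 4.54 and 2.63 for the HSP26 ORFs ZBIST_3442 and ZBIST_0079, 1.77 for ZBIST_2634, 1.72 for ZBIST_1233 and 1.40 for ZBIST_4636. Of these 10 genes only ZBIST_4636 was also listed in the mutant against the parental strain without stress, where it was higher in the mutant by 1.01. ZRT1 was thus at 1758 CPM in copper-treated parental cells and at 50.3 CPM in copper-treated mutant cells. For CRS5 the level implied for the mutant in copper was 11687 CPM, which lies between the 3839 CPM of unstressed and the 26734 CPM of copper-treated parental cells. Other raised genes with lower levels in the mutant were ADH3 (-1.55), MDH2 (-1.50), GOR1 (-1.33) and CLB5 (-1.10). Other chaperones that were higher in the mutant than in parental cells included SSA3 (4.50), HSP42 (3.83), HSP104 (3.40) and BTN2 (3.23). Of the proteasome core subunits raised after copper, those listed in that comparison were all higher in the mutant, from 0.72 for PRE4 to 0.97 for PRE8. PUP1, PRE7 and PRE9 were not listed there. RPT5 of the regulatory particle was higher by 1.22. FET3, SOD1, SIT1, both ARN2 ORFs and HMX1 were not listed in that comparison, and FRE3 was higher in the mutant by 1.32 in ZBIST_2107 and lower (-0.70) in ZBIST_4165. The lowered iron-sulfur genes were all lower still in the mutant, with -1.52 for ILV3, -1.25 and -0.69 for the aconitases, -1.03 for CIR2, -1.01 for MET5 and -0.64 for LYS4. This was not particular to them. The other lowered genes listed in that comparison were also lower in the mutant, except SGA1 (0.61), YMR244W (1.72), the TPO1 ORF ZBIST_1684 (0.97) and ZBIST_1699 (1.27).

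**Figure D4:**
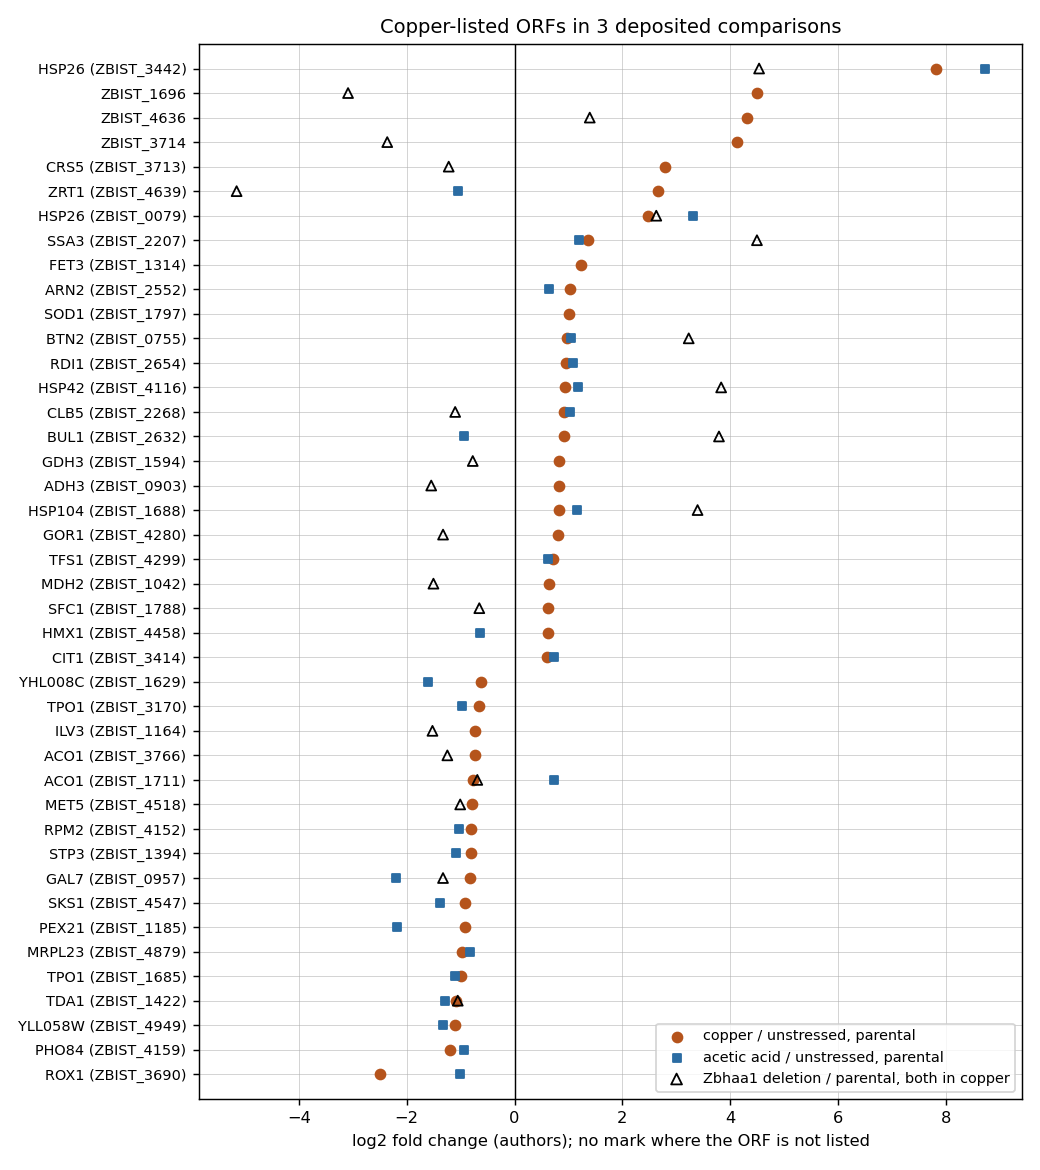
Deposited log2 fold changes (horizontal axis) of 42 copper-listed genes in copper against unstressed parental cells (brown circles), acetic acid against unstressed parental cells (blue squares), and the Zbhaa1 mutant against parental cells in copper (open triangles), with no mark where a gene was not listed. The circle of ZRT1 lies at 2.67 with its square at -1.04 and its triangle at -5.16, whereas for SSA3, HSP42, HSP104 and BTN2 all the marks lie to the right of 0.

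The genes just inside the thresholds were ZBIST_4004 with a log2 fold change of 0.59, ZBIST_4751 with 0.60 and CIT1 with 0.61 among the raised, and OXA1, WSC4 and MAK5, each at -0.59, among the lowered. The highest FDR values by edgeR were 0.0498 for RHB1, 0.0487 for ZBIST_0039 and 0.0478 for RDI1 and OXA1. Values just outside the thresholds were not analysed here.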

How the data were processed

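RNA of parental cells, 3 libraries of unstressed and 3 of copper-treated cultures from independent experiments, was sequenced from the 3' end of mRNA. As the methods and the submitters' processing notes state, alignment by the authors used STAR 2.5.2a and gene counting used HTSeq, a gene needed a minimum CPM of 1 in at least 3 samples, and the authors compared groups in edgeR after TMM scaling. The deposited log2 columns hold the fold change and the average CPM. The FDR is the adjusted p-value that the authors took from edgeR and deposited. These p-values concern the difference between the groups and rest on 3 cultures a group. They do not give the spread of a single gene among its cultures. By the methods, the unstressed and the copper-treated flask were inoculated from the same growing culture of the strain. The groups are thus matched by experiment. Whether the authors' comparison used this matching is not given in the sources used here. The deposited tables hold comparisons and nothing else, so they were used as they stand, with no test of their own. The HTSeq strand setting and genome build version are not given in the sources used here.

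From these values genes were counted per direction and list. Implied levels assume that the average log2 CPM is the log2 of the mean CPM of both groups. Shares of reads were computed from these implied levels. They rest on the same assumption and on the authors' TMM scaling, so they are approximate. As a check, the unstressed level recovered from the acid table differed by a median of 0.058 log2 units over 34 genes. The copper-treated parental level recovered from the comparison of mutant and parental cells in copper differed by a median of 0.027 over 105 genes. The SE limit is the size of the log2 fold change divided by the normal quantile of the FDR taken as a two-sided p-value. The number of genes tested, 4930 (estimates 4929.6 to 4934.15), was recovered from the relation of p-value to FDR in the first 3 genes with distinct FDR, using p-values of the supplementary tables. The 24 gene lists were typed from general knowledge of yeast genes. They hold only ORFs named in the supplementary tables, each listed in at least 1 comparison, so shares do not refer to the whole genome. Members and lists were chosen with earlier results of these data known. Genes named are the 20 largest increases and 12 largest decreases, listed members of a list except 1 that is not reported here, members of adjacent pairs, genes nearest the thresholds, and others named after their values were seen. The remaining listed genes enter the counts alone. Neighbours come from the annotation of assembly GCA_900162805.1. Scripts ran in Python 3.11.15 (pandas 2.3.3, numpy 2.4.6, matplotlib 3.10.9, scipy 1.17.1) and were tested on simulated data. Library depths were not used here, and counting intervals are therefore not given.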

Additional observations from a re-analysis of the deposited data

How the results depend on the processing

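With a fold change above 2 the counts fell from 121 to 26 raised genes and from 69 to 12 lowered genes, and with an FDR below 0.01 they were 50 and 23, since both settings keep a subset of the listed genes. With an average log2 CPM of at least 4 they were 110 and 63. Of 32 counts per list and direction, 22 were 0 with a fold change above 2 and 11 were 0 with an FDR below 0.01, while the 3 copper and zinc genes stayed in both. With at most 1 gene between them, 18 pairs of listed genes were neighbours instead of 12. If the average log2 CPM is read as the mean of both log2 levels, implied unstressed levels of 7 leading genes shift by 0.09 to 1.31 log2 units, and the fold changes stay as they are. No paired analysis was possible because the deposited comparisons carry no values per replicate, and for the same reason no library could be left out. Gene lists by product name and promoter motifs were not run.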
